A study of Mus musculus with 9 samples.

Results

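The 39 genes described here encode the proteins of tight junctions, adherens junctions and desmosomes, the structures that join epithelial cells side by side. They were taken by symbol from a list that was chosen with earlier results of these data known. All 39 were matched to Ensembl identifiers in a table of 54838 genes. By role, 22 belong to tight junctions and the polarity complexes attached to them, 5 to adherens junctions and 11 to desmosomes, and Mal2, an apical transport protein, makes up the rest. RNA was sequenced from 9 libraries of the mouse pancreatic ductal adenocarcinoma line PDA530 Met, which was grown out of a metastasis in the liver of a KPC mouse, a male of mixed 129/SvJae/C57Bl/6 background. The parental group held 3 libraries of the uncloned line, which the design text calls PDA50 Met; both names are taken here for the same line. The knockout group held 3 libraries of clone E4, a single-cell clone edited in Zdhhc20 with CRISPR/Cas9, and Zdhhc20 encodes a palmitoyltransferase. The control group held 3 libraries of clone C5, a single-cell clone that received the same guide RNAs by nucleofection but stayed unedited and still expresses Zdhhc20. None of the cultures was treated. Each clone is a single line, so its libraries show how cultures of that line vary but not how separate clones would, and an effect of the edit cannot be told apart from a difference between clones.

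Tight junctions seal the space between epithelial cells. Claudins form their strands, occludin, tricellulin and MarvelD3 run in the same membrane, and ZO proteins and cingulins tie them to actin. Adherens junctions hold neighbours together through E-cadherin, whose tail binds beta-catenin and p120, and alpha-catenin links that complex to actin. Desmosomes use their own cadherins, the desmogleins and desmocollins, which plakoglobin, plakophilins and plakins anchor to keratin filaments. ZDHHC enzymes attach palmitate to proteins after translation, and RNA levels do not measure that modification.

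Library totals ranged from 16525869 to 23192701 counts, and the 39 genes took 0.565% to 0.74% of them. Levels are given as CPM, a gene's counts scaled to the TMM-adjusted library total, means carry the SD over 3 libraries, and a gene was "called" at an adjusted p under 0.05 in the edgeR quasi-likelihood test over all 13153 genes that passed the filter on low counts. Zdhhc20 was at 33.9 to 42.5 CPM across the knockout samples, 85.8 to 123 CPM across the control samples and 75.3 to 90.7 CPM across the parental samples, so it fell but was not absent from clone E4. The labelled epithelial cell type was checked on 6 ductal markers: keratins 7, 8, 18 and 19 and Sox9 were present in every library, while the epithelial surface marker Epcam did not exceed 0.635 CPM in any. Summed markers of fibroblasts, immune, endothelial, acinar and liver cells stayed at or below 7.66 CPM in every library, and 4 of 6 acinar, 4 of 8 fibroblast and 3 of 6 immune markers were at 0 throughout. Control replicates were less alike than those of the other groups: the median SD of log2 CPM over the junction genes tested was 0.276 in clone C5, 0.0969 in clone E4 and 0.107 in the parental line. Control replicate 2 was the lowest of the control libraries for 24 of 37 junction genes and the highest for 7. In bulk RNA, fewer cells expressing a gene and less RNA per cell cannot be told apart.

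The knockout clone had lower RNA for nearly every desmosome gene and modestly lower E-cadherin and beta-catenin. Adherens junction and tight junction genes were each called in both directions. Of the 39 genes, 37 passed the filter. Against clone C5 29 of these were called, where 42.9% of all tested genes were: 22 lower, against a background of 24.2%, and 7 higher, against 18.7%. Against the parental line 23 were called, where 31.4% of all tested genes were: 18 lower, against 18.3%, and 5 higher, against 13.1%. Changes of at least 1 on the log2 scale were called for 11 lower genes (background 10.3%) and 3 higher (3.68%) against clone C5, and for 11 lower (8.17%) and 2 higher (2.42%) against the parental line. The knockout libraries lay wholly below the control libraries for 23 genes (27.6% of all tested genes) and wholly above for 8 (24%), and below the parental libraries for 23 (31.7%) and above for 9 (29.8%). The comparisons share the knockout libraries, so they are not independent of each other. The median log2 fold change of the tested junction genes was -0.48 and -0.46, beside -0.02 and -0.01 over all tested genes. Of the 37, 31 were over the filter's minimum of 0.565 CPM in all 9 libraries. Cldn4, Marveld3 and Pkp1 passed through a single group and Ocln and Tjp3 through both unedited groups, so a difference was built into their passing; Cldn23 passed through libraries of several groups.

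The 3 junction types differed in how far clone E4 departed. Desmosome genes summed to 778, 845 and 750 CPM across the knockout samples, 1660, 1180 and 1550 CPM across the control samples and 1450, 1420 and 1660 CPM across the parental samples. Every knockout library was below all 6 others, and the knockout mean was 54.0% of the control mean and 52.4% of the parental mean. Adherens junction genes summed to 3340, 3250 and 3300 CPM across the knockout samples, 4300, 3650 and 4270 CPM across the control samples and 3840, 3810 and 4020 CPM across the parental samples. The knockout libraries again lay below all others, with their mean at 80.9% and 84.7% of the other means, while the control and parental ranges overlapped. Tight junction genes summed to 1670, 1620 and 1640 CPM across the knockout samples, 1480, 1660 and 1680 CPM across the control samples and 1590, 1570 and 1530 CPM across the parental samples. The knockout libraries lay inside the control range and above the parental one, with a mean at 102% and 105% of the others. Cldn6 carried this level: without it, an alternative chosen after seeing the data, the sums were 1360, 1350 and 1330 CPM across the knockout samples, 1380, 1570 and 1540 CPM across the control samples and 1480, 1440 and 1450 CPM across the parental samples. The knockout libraries were then below all others, at 89.9% and 92.5% of the other means. The median log2 fold change against clone C5 was -1.20 for the 11 desmosome genes, -0.37 for the 5 adherens junction genes and 0.02 for the 20 tested tight junction genes. Against the parental line the medians were -1.20, -0.12 and -0.20. Of the genes tested, 90.9% of desmosome, 60% of adherens junction and 40% of tight junction genes were called lower than in clone C5, beside 24.2% of all tested genes. Against the parental line the shares were 90.9%, 40% and 25%, beside 18.3%. Tight junction genes called higher were 5 of 20 against clone C5, or 25% beside 18.7% of all tested genes. Against the parental line they were 3 of 20, or 15% beside 13.1%. For adherens junctions the genes called higher in these comparisons were 2 of 5, or 40%, and 1 of 5, or 20%. For desmosomes they were 0 of 11 and 1 of 11. These shares are descriptions, since genes are not replicates and the list was chosen with earlier results of these data known. The difference between types was not tested. The 6 epithelial and ductal markers did not all move one way. They summed to 3550 to 3670 CPM across the knockout samples, 5940 to 8050 CPM across the control samples and 5560 to 6830 CPM across the parental samples, a sum carried by the keratins. Krt8, Krt18 and Krt19 were called lower against each group, Krt19 most, at -3.12 (adjusted p 8.76e-05) and -2.73 (adjusted p 0.000278), and Krt7 only against clone C5 (adjusted p 0.000198, beside 0.578 against the parental line). Sox9 was not called (-0.38, adjusted p 0.275, and 0.12, adjusted p 0.776), and Epcam, on 34 counts in clone E4, was called higher (1.96, adjusted p 0.00393, and 1.58, adjusted p 0.0139). The part of these markers in the result was not tested.

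**Figure D1:**
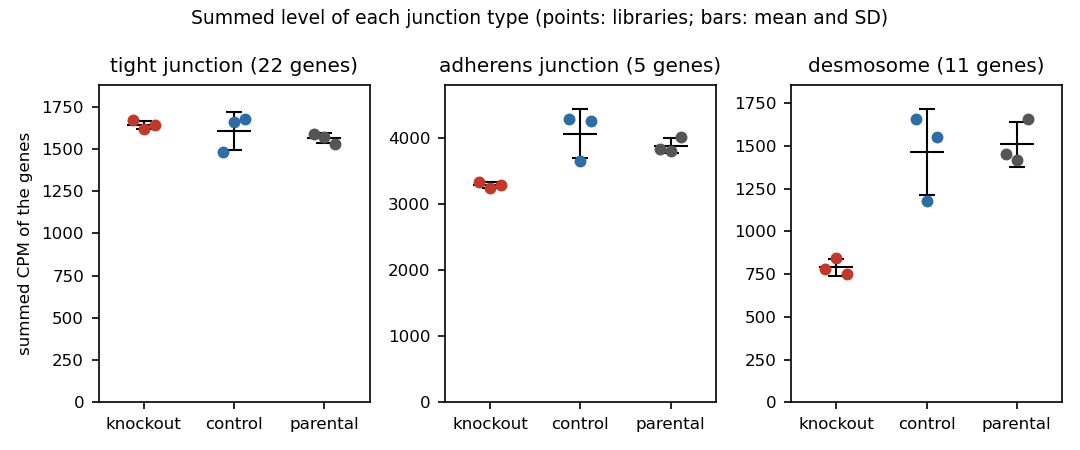
Summed CPM (vertical axis, from 0) of the 22 tight junction, 5 adherens junction and 11 desmosome genes in each library; points are libraries, bars the mean and SD over 3. The knockout libraries lie below all others for desmosomes, at 750 to 845 CPM, and for adherens junctions, at 3250 to 3340 CPM, while for tight junctions, with Cldn6 counted, they lie inside the control range.

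**Figure D2:**
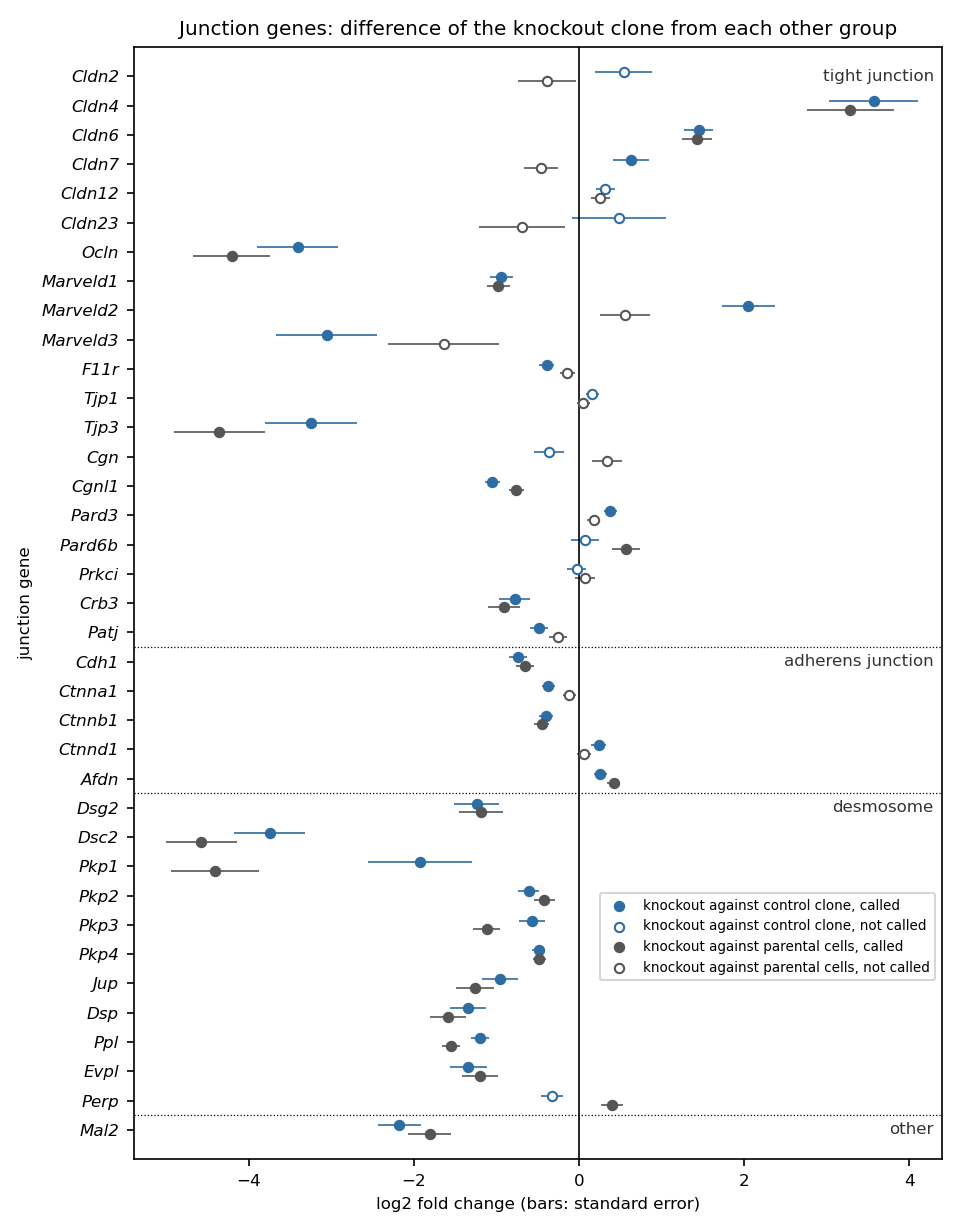
Log2 fold change of clone E4 (knockout) against clone C5 (control, blue) and the parental line (grey) for the 37 tested genes, with standard errors; filled points passed the threshold. Desmosome genes other than Perp lie left of 0 in both comparisons, while tight junction genes spread from -4.36 for Tjp3 to 3.57 for Cldn4.

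Start regions are shown for 6 genes with the largest or most central differences, so that genes that fell and genes that rose can be read side by side. The sequences are from RefSeq (GRCm38.p6), and the table of start regions used here held 26 of the 39 genes. Cldn23, Marveld3, Cdh1, Ctnna1, Dsg2, Dsc2, Pkp1, Pkp2, Pkp3, Ppl, Evpl, Perp and Mal2 are not in that table. Each sequence runs 5′ to 3′ on the strand of its gene, from 130 bases before the RefSeq start to 30 bases after it. Gene positions elsewhere in the text are from GENCODE, whose start differs by 116 bases for Cldn6 and 27 for Jup. Capitals mark CAGGTG or its reverse complement CACCTG, the E-box that Snail and Zeb repressors are known to bind. Lower in clone E4 were Ocln at chr13:100552689-100552848, Tjp3 at chr10:81291552-81291711 and Jup at chr11:100397761-100397920, all on the minus strand, and Dsp at chr13:38151164-38151323 on the plus strand. Higher were Cldn4 at chr5:134946905-134947064 on the minus strand and Cldn6 at chr17:23679235-23679394 on the plus strand.
Ocln: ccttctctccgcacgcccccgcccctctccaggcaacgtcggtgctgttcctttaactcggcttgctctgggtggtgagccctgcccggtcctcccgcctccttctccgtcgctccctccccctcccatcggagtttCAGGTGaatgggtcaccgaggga
Tjp3: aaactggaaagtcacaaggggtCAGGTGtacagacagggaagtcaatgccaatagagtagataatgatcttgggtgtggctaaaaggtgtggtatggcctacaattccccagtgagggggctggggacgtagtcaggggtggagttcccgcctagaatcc
Dsp: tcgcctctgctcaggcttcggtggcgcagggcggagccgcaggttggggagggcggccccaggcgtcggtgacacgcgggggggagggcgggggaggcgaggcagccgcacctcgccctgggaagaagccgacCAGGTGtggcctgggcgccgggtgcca
Jup: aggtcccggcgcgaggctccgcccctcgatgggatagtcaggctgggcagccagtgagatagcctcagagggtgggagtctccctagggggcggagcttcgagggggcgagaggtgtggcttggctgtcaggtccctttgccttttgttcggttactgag
Cldn4: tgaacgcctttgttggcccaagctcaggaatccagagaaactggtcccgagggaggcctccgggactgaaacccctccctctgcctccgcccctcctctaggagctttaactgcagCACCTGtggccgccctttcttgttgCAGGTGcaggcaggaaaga
Cldn6: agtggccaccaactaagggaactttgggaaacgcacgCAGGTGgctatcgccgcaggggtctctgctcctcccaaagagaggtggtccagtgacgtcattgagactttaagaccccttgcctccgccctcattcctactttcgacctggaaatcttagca

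In the full windows of 300 bases, from 250 before the start to 50 after it, 11 of the 26 genes held CAGGTG on either strand, which is 42.3%, beside 20.2% of all 32851 windows. The matches were in Cldn3, Cldn4, Cldn6, Ocln, Marveld2, F11r, Tjp3, Pard6b, Crb3, Patj and Dsp. Genes called lower against both groups (Ocln, Tjp3, Dsp and Crb3) and higher against both (Cldn4 and Cldn6) were among them. F11r and Patj were called lower and Marveld2 higher against clone C5 only. Pard6b was called higher against the parental line only, and Cldn3 was not tested. All matches but that of Dsp were in tight junction genes. Of the desmosome genes, only Pkp4, Jup and Dsp had a window. The letters AACCGG, which open the motif of grainyhead-like epithelial factors, were found on either strand in 1 of the 26 windows, that of Cgn, and in 6.83% of all windows. The motifs do not overlap each other. For Crb3, Ctnnb1 and Tjp1 the RefSeq start used lay 3096, 4184 and 156537 bases from the GENCODE start. A match is a description of the sequence only, and binding was not measured.

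Among the plakins, which link the desmosome plaque to keratin filaments, the 3 listed here were called lower against each group; Plec, Eppk1 and Dst, plakins outside the list, were not. Dsp, desmoplakin, lies on chromosome 13 from 38151294 to 38198577 (GRCm38) and stood at 201, 225 and 178 CPM across the knockout samples, 607, 328 and 603 CPM across the control samples and 568, 556 and 694 CPM across the parental samples. All knockout libraries were below all others, and control replicate 2 was the lowest of the rest. Its log2 difference came to -1.35 (SE 0.22, adjusted p 0.00104) against clone C5 and -1.59 (SE 0.22, adjusted p 0.000687) against the parental line. The median of all tested genes on chromosome 13 was 0.33 and 0.12 in those comparisons, so Dsp moved against its chromosome. Ppl, periplakin, was at 21.9, 26.7 and 19.7 CPM across the knockout samples, at 56, 49.4 and 51.8 CPM across the control samples and at 70.2, 65.1 and 64.5 CPM across the parental samples, with no overlap between any of the 3 groups. It fell by 1.20 on the log2 scale against clone C5 (SE 0.11, adjusted p 5.76e-05) and had a value of -1.55 (SE 0.11, adjusted p 3.1e-05) against the parental line. Genes of its chromosome 16 had medians of -0.35 and -0.29. Evpl, envoplakin, was at 9.86, 10.6 and 8.12 CPM across the knockout samples, 26.9, 15.8 and 29.7 CPM across the control samples and 21.6, 20.5 and 23.8 CPM across the parental samples. In log2 terms it differed by -1.34 (adjusted p 0.00106) and -1.20 (adjusted p 0.00295), and the knockout libraries again did not overlap the others.

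Both desmosomal cadherins fell, Dsc2 far more than Dsg2. Dsc2, desmocollin 2, was at 1.22, 0.946 and 1.28 CPM across the knockout samples, 17.5, 6.6 and 22.4 CPM across the control samples and 26.7, 25.4 and 31.1 CPM across the parental samples. Even the lowest control library, replicate 2, was above every knockout library. The log2 difference came to -3.75 (SE 0.43, adjusted p 0.000169) against clone C5 and -4.58 (SE 0.43, adjusted p 9.59e-05) against the parental line, the lowest value among the 37 tested genes in each comparison. Dsg2, desmoglein 2, was at 63, 86.3 and 61 CPM across the knockout samples, 248, 115 and 134 CPM across the control samples and 152, 150 and 177 CPM across the parental samples. Here control replicate 1 stood above the rest, and no knockout library overlapped another group. The log2 fold changes came to -1.24 (SE 0.27, adjusted p 0.00471) and -1.19 (SE 0.27, adjusted p 0.00847). Dsg2 shares exon sequence with the antisense gene Gm16090 and Dsp with Gm10129, and without a stated strand setting their reads cannot be separated. Dsg2 and Dsc2 lie in a cluster of desmosomal cadherins on chromosome 18; Dsg1a, Dsg1b, Dsg1c, Dsg3, Dsg4, Dsc1 and Dsc3, the other genes of these families, had too few counts to be tested.

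The armadillo proteins of the desmosome, plakoglobin and the plakophilins, couple the cadherins to the plakins, and all 5 were called lower against each group. Jup, plakoglobin, which also binds E-cadherin, was at 53.3, 60.2 and 52.6 CPM across the knockout samples, 120, 65.1 and 138 CPM across the control samples and 125, 129 and 142 CPM across the parental samples. Control replicate 2, the lowest of the unedited libraries, was still above the highest knockout library. In log2 terms it differed by -0.96 (SE 0.22, adjusted p 0.00732) and -1.26 (SE 0.23, adjusted p 0.00285). Pkp1, plakophilin 1, was low everywhere: 0.0977, 0.167 and 0.0584 CPM across the knockout samples, 0.218, 0.357 and 0.735 CPM across the control samples and 2.75, 1.89 and 2.65 CPM across the parental samples. The 3 groups did not overlap, and the knockout libraries rest on 6 counts in all. Pkp1 passed the filter through the parental group alone. Its log2 fold change was -4.41 (adjusted p 0.000323) against the parental line and -1.93 (adjusted p 0.0286) against clone C5. The second call was lost without control replicate 3 (-1.32, adjusted p 0.102), knockout replicate 1 (adjusted p 0.0884) or knockout replicate 3 (adjusted p 0.0911).

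Pkp3, plakophilin 3, was at 3.91, 5.01 and 4.38 CPM across the knockout samples, 6.98, 6.96 and 5.72 CPM across the control samples and 9.78, 8.43 and 10.7 CPM across the parental samples, in 3 separate ranges. The log2 fold changes came to -0.57 (adjusted p 0.0176) and -1.12 (adjusted p 0.000802). The first was lost when only the groups compared were fitted (adjusted p 0.0528) and without control replicate 1 (adjusted p 0.0574), knockout replicate 1 (adjusted p 0.0787) or knockout replicate 3 (adjusted p 0.0553). Pkp2 (-0.61 and -0.42) and Pkp4 (-0.49 and -0.48), which is also found at adherens junctions, fell by less. Pkp2 lies on chromosome 16 like Ppl, and its values were -0.26 and -0.12 relative to that chromosome's medians. The Pkp2 call against the parental line (adjusted p 0.0414) was lost without control replicate 1 (adjusted p 0.0588) and without any 1 parental or knockout library, with adjusted p from 0.0745 to 0.145. Perp, a membrane protein needed for desmosome assembly, was the exception among the 11. It stood at 169 ± 7.46 CPM (SD, n = 3) in clone E4, between 127 ± 8.23 CPM in the parental line and 212 ± 41.3 CPM in clone C5. Its log2 fold change was 0.40 against the parental line (adjusted p 0.0359), a call lost without any 1 parental or knockout library (adjusted p from 0.0571 to 0.112). Against clone C5 the value was -0.33 (adjusted p 0.0592) and came to -0.15 (adjusted p 0.122) without control replicate 2. It was called without control replicate 1 (adjusted p 0.0316) or 3 (adjusted p 0.0344), with DESeq2 (adjusted p 0.0434) and when genes averaging under 5 CPM were dropped (adjusted p 0.041). Excluding each library in turn left 8 to 10 desmosome genes called lower against clone C5, where 2440 to 3813 of all genes were, and 9 or 10 against the parental line, where 1640 to 3093 were.

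**Figure D3:**
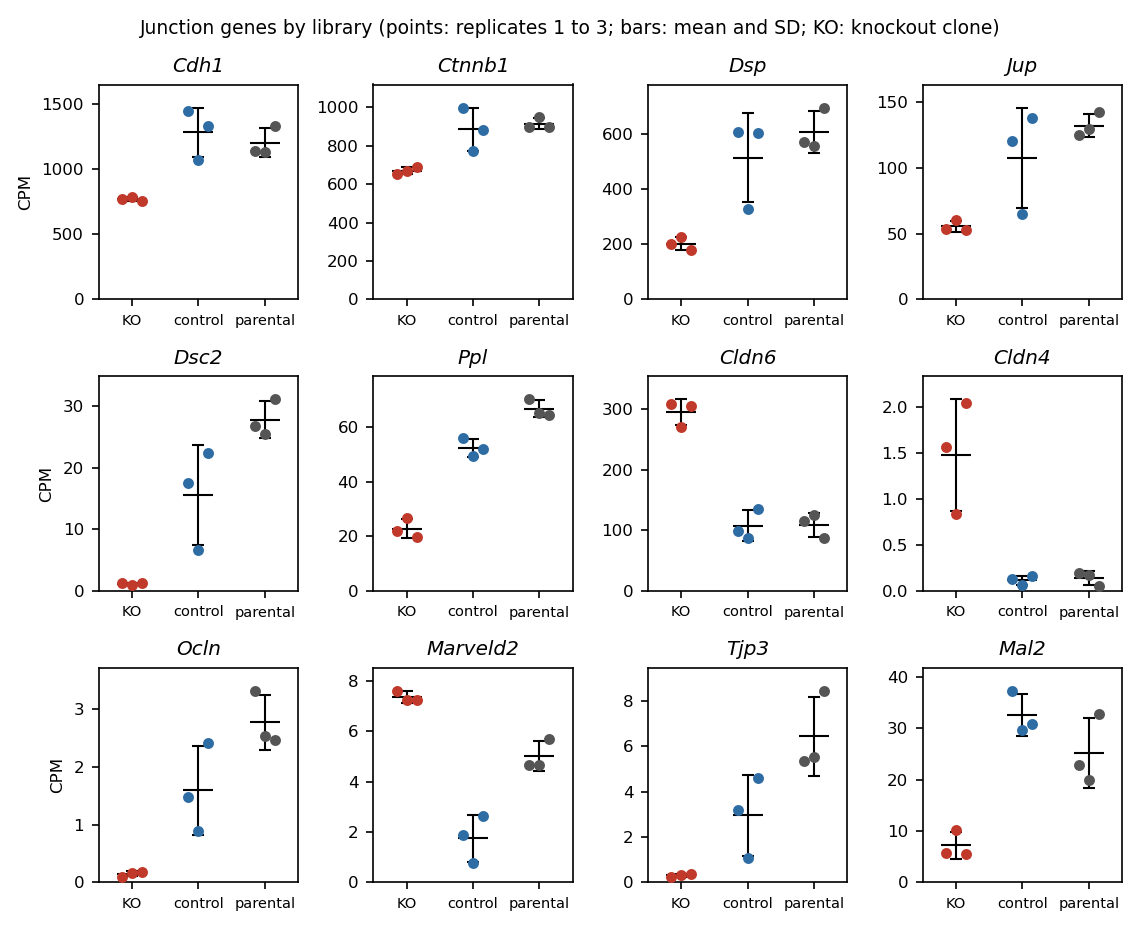
CPM (vertical axes, each from 0) of 12 junction genes in every library; points are replicates 1 to 3, bars the mean and SD. Dsp, Dsc2, Ppl, Ocln, Tjp3 and Mal2 are low in all 3 knockout libraries, and Cldn6 and Cldn4 are high there. Control replicate 2 lies lowest of its group for all 12 genes shown.

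Among the 5 adherens junction genes no difference reached 1 on the log2 scale. Cdh1, E-cadherin (chromosome 8 from 106603351 to 106670246), was at 767, 784 and 754 CPM across the knockout samples, 1440, 1070 and 1330 CPM across the control samples and 1140, 1130 and 1330 CPM across the parental samples. The knockout libraries lay below all others, though all kept the gene well expressed. In log2 terms it differed by -0.74 (SE 0.11, adjusted p 0.000848) and -0.65 (SE 0.11, adjusted p 0.00263). Ctnnb1, beta-catenin, was at 652, 668 and 690 CPM across the knockout samples, 998, 774 and 882 CPM across the control samples and 899, 947 and 896 CPM across the parental samples, also without overlap. It was called lower at -0.40 (adjusted p 0.00652) and -0.45 (adjusted p 0.00547). Its chromosome 9 had a median of -0.53 in both comparisons, so Ctnnb1 was 0.12 and 0.09 above the other genes there, and Cdh1, on chromosome 8, was 0.70 and 0.64 below a chromosome median near 0. Ctnna1, alpha-catenin, was at 786, 769 and 771 CPM across the knockout samples, 1000, 903 and 1100 CPM across the control samples and 867, 804 and 864 CPM across the parental samples. The knockout libraries were lowest, and the call held against clone C5 (-0.37, adjusted p 0.00557) but not against the parental line (-0.12, adjusted p 0.28). Ctnnb1 and Ctnna1 share exon sequence with antisense genes, Ulk4 and Lrrtm2, as Afdn does with Tcte2, and Ctnnd1 overlaps Gm28635 on its own strand.

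The remaining adherens junction genes were called higher than in clone C5. Afdn, afadin, which joins nectins to actin, rose by 0.26 (adjusted p 0.0216) over clone C5 and 0.42 (adjusted p 0.00298) over the parental line, and its knockout libraries lay above all others. The first call was lost without control replicate 1 (adjusted p 0.0724) or knockout replicate 1 (adjusted p 0.0646). Ctnnd1, p120, was at 577 ± 40.3 CPM in clone E4, 487 ± 48.5 CPM in clone C5 and 555 ± 7.25 CPM in the parental line (SD, n = 3). Its call against clone C5 (0.24, adjusted p 0.0454) was lost in 10 of 17 alternatives, with adjusted p up to 0.137, among them the exclusion of control replicate 1 or 2, any parental replicate, or knockout replicate 1 or 3. It was not called against the parental line (0.06, adjusted p 0.653).

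Claudins, the strand-forming proteins, included the only junction genes of the list that rose by more than 1 on the log2 scale over both groups. Cldn6, an embryonic-type claudin (chromosome 17 from 23679249 to 23682446), was at 309, 270 and 306 CPM across the knockout samples, 99.1, 88 and 136 CPM across the control samples and 115, 126 and 87.3 CPM across the parental samples. The knockout libraries were far above the rest, and the other groups overlapped each other. The log2 fold changes came to 1.45 (SE 0.18, adjusted p 0.000231) and 1.43 (SE 0.18, adjusted p 0.00041), beside medians of 0.14 and 0.21 on its chromosome. Cldn4 was barely expressed: 1.56, 0.835 and 2.04 CPM across the knockout samples, 0.131, 0.0595 and 0.157 CPM across the control samples and 0.193, 0.177 and 0.0588 CPM across the parental samples. These rest on 82, 7 and 8 counts per group. Cldn4 passed the filter through the knockout group alone, so a difference was built into its passing. In log2 terms it differed by 3.57 (SE 0.54, adjusted p 0.000646) and 3.29 (SE 0.53, adjusted p 0.0014), without overlap.

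Cldn2, a claudin that forms cation-selective pores, varied inside clone C5. Its levels were 101, 105 and 105 CPM across the knockout samples, 67.5, 30.7 and 116 CPM across the control samples and 133, 143 and 130 CPM across the parental samples. The control libraries spanned the knockout values, and neither knockout comparison was called (0.54, adjusted p 0.243, and -0.39, adjusted p 0.431). The first value fell to 0.18 (adjusted p 0.406) without control replicate 2 and was called at 1.07 (adjusted p 0.00778) without control replicate 3. With only the groups compared in the fit the second was called (adjusted p 0.000222). Cldn12 stood at 83.7 ± 1.9 CPM in clone E4, 67.3 ± 12.3 CPM in clone C5 and 69.9 ± 2.65 CPM in the parental line (SD, n = 3), above both without overlap but not called (adjusted p 0.0598 and 0.13). The first was called in 6 of 17 alternatives, including the fits without control replicate 2 (0.42, adjusted p 0.0107) or 3 (adjusted p 0.0424), but was 0.17 (adjusted p 0.115) without control replicate 1. The second was called without control replicate 1 (adjusted p 0.0229) and with only the groups compared (adjusted p 0.00218). Cldn7 was at 3.18 ± 0.656, 2.05 ± 0.101 and 4.38 ± 0.742 CPM in E4, C5 and the parental line (SD, n = 3). It was called against clone C5 at 0.63 (adjusted p 0.0407), a call lost in 11 of 16 alternatives with adjusted p up to 0.139; the exclusion of any control library, of parental replicate 1 or 2, or of knockout replicate 1 or 3 ended it. Cldn23 did not exceed 0.915 CPM in any library and was not called. Cldn3 held 2 counts, both in parental replicate 2, and Cldn1 held 0 in all 9 libraries, so neither was tested, and a difference was not detectable at this depth.

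The MARVEL proteins, which share a membrane fold with occludin, moved in different directions. Ocln, occludin (chromosome 13 from 100496507 to 100552718), was at 0.0977, 0.167 and 0.175 CPM across the knockout samples, 1.48, 0.892 and 2.41 CPM across the control samples and 3.32, 2.53 and 2.47 CPM across the parental samples. The knockout libraries, with 8 counts in all against 95 and 154, were below all others. The log2 fold changes came to -3.41 (SE 0.49, adjusted p 0.000509) and -4.21 (SE 0.47, adjusted p 0.000222). Marveld2, tricellulin, which seals the corners where 3 cells meet, lies 43.2 kb from Ocln and was at 7.62, 7.23 and 7.24 CPM across the knockout samples, 1.88, 0.773 and 2.62 CPM across the control samples and 4.67, 4.66 and 5.71 CPM across the parental samples. The 3 groups did not overlap, with clone E4 highest. It was called higher than in clone C5 at 2.05 (SE 0.32, adjusted p 0.000879), while the value against the parental line, 0.56 (adjusted p 0.181), was called without control replicate 2 (adjusted p 0.0177) and with only the groups compared (adjusted p 0.00483). Marveld3 was at 0.244, 0.111 and 0.234 CPM across the knockout samples, 1.92, 0.892 and 2.26 CPM across the control samples and 0.385, 1.18 and 0.353 CPM across the parental samples. Marveld3 passed the filter through the control group alone. It was called lower than in clone C5 at -3.06 (adjusted p 0.00309) and not against the parental line (-1.64, adjusted p 0.0876), where the value was -0.89 (adjusted p 0.344) without parental replicate 2. Marveld1 fell from 56.5 ± 11 CPM in clone C5 and 58 ± 6.57 CPM in the parental line to 29.4 ± 0.712 CPM in clone E4 (SD, n = 3), at -0.94 (adjusted p 0.000758) and -0.98 (adjusted p 0.000974). F11r, the adhesion molecule JAM-A, was called lower against clone C5 (-0.39, adjusted p 0.00652) and not against the parental line (-0.14, adjusted p 0.261), where the value was -0.07 (adjusted p 0.666) without parental replicate 3.

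Of the 4 scaffold genes, Tjp1 and Cgn were not called in either knockout comparison, while Tjp3 and Cgnl1 fell. Tjp1, ZO-1, was at 380, 361 and 359 CPM across the knockout samples, 307, 356 and 318 CPM across the control samples and 371, 348 and 344 CPM across the parental samples. In log2 terms it differed by 0.16 (SE 0.08, adjusted p 0.111) and 0.05 (SE 0.08, adjusted p 0.667); without control replicate 2 the first was called, at 0.23 (adjusted p 0.0169). Tjp3, ZO-3, was at 0.244, 0.334 and 0.35 CPM across the knockout samples, 3.19, 1.07 and 4.62 CPM across the control samples and 5.35, 5.54 and 8.47 CPM across the parental samples. The 3 groups did not overlap, and the knockout libraries hold 17 counts. It was called lower at -3.25 (SE 0.56, adjusted p 0.00141) and -4.36 (SE 0.55, adjusted p 0.00041), and it overlaps the antisense gene Apba3. Cgnl1, paracingulin, was at 158, 138 and 143 CPM across the knockout samples, 268, 305 and 336 CPM across the control samples and 255, 251 and 240 CPM across the parental samples. It was called lower at -1.05 (SE 0.09, adjusted p 4.59e-05) and -0.76 (SE 0.09, adjusted p 0.00041), with no overlap. Like Ctnnb1 it lies on chromosome 9, and its values were 0.52 and 0.23 below that chromosome's median. Cgn, cingulin, was at 98 ± 5.25, 126 ± 39.7 and 77.2 ± 4.39 CPM in clone E4, clone C5 and the parental line (SD, n = 3) and was not called (-0.36, adjusted p 0.135, and 0.34, adjusted p 0.177). The first value rests on single control libraries: it was -0.07 (adjusted p 0.507) without control replicate 2 and was called without control replicate 3 (-0.52, adjusted p 0.0216). Cgn was called in the second without control replicate 2 (adjusted p 0.00596) and with only the groups compared (adjusted p 0.00107).

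The polarity genes, whose products position tight junctions at the apical side, had log2 fold changes from -0.91 to 0.57. Crb3, the epithelial Crumbs protein, was the one called lower in both comparisons (-0.78, adjusted p 0.00891, and -0.91, adjusted p 0.00617), at 7.17 ± 1.36 CPM in clone E4 against 12.3 ± 2.71 and 13.5 ± 1.06 CPM in clone C5 and the parental line (SD, n = 3). It overlaps the antisense gene Dennd1c. Patj, a Crumbs scaffold, was lower than in clone C5 (-0.48, adjusted p 0.00586) and Pard3 higher (0.38, adjusted p 0.00366). Neither was called against the parental line (-0.25, adjusted p 0.102, and 0.18, adjusted p 0.111) with all libraries, but each was with only the groups compared (adjusted p 0.00337 and 0.0166), without control replicate 3 (adjusted p 0.0161 and 0.0418) and, for Patj, without control replicate 2 (adjusted p 0.0285). Pard6b was higher than in the parental line (0.57, adjusted p 0.0294), a call lost without any 1 parental or knockout library (adjusted p from 0.0519 to 0.0947). Against clone C5 its value of 0.07 (adjusted p 0.767) became 0.34 (adjusted p 0.00453) without control replicate 2. Prkci, atypical protein kinase C iota, was at 199 ± 6.2, 203 ± 41.7 and 189 ± 4.38 CPM in the 3 groups, with log2 fold changes of -0.03 and 0.07 (SE 0.12 in each). Mal2, which carries cargo to the apical surface, was at 5.81, 10.2 and 5.61 CPM across the knockout samples, 37.3, 29.6 and 30.7 CPM across the control samples and 22.8, 19.9 and 32.8 CPM across the parental samples. It fell without overlap, at -2.18 (SE 0.26, adjusted p 0.000204) and -1.81 (SE 0.26, adjusted p 0.000861).

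**Figure D4:**
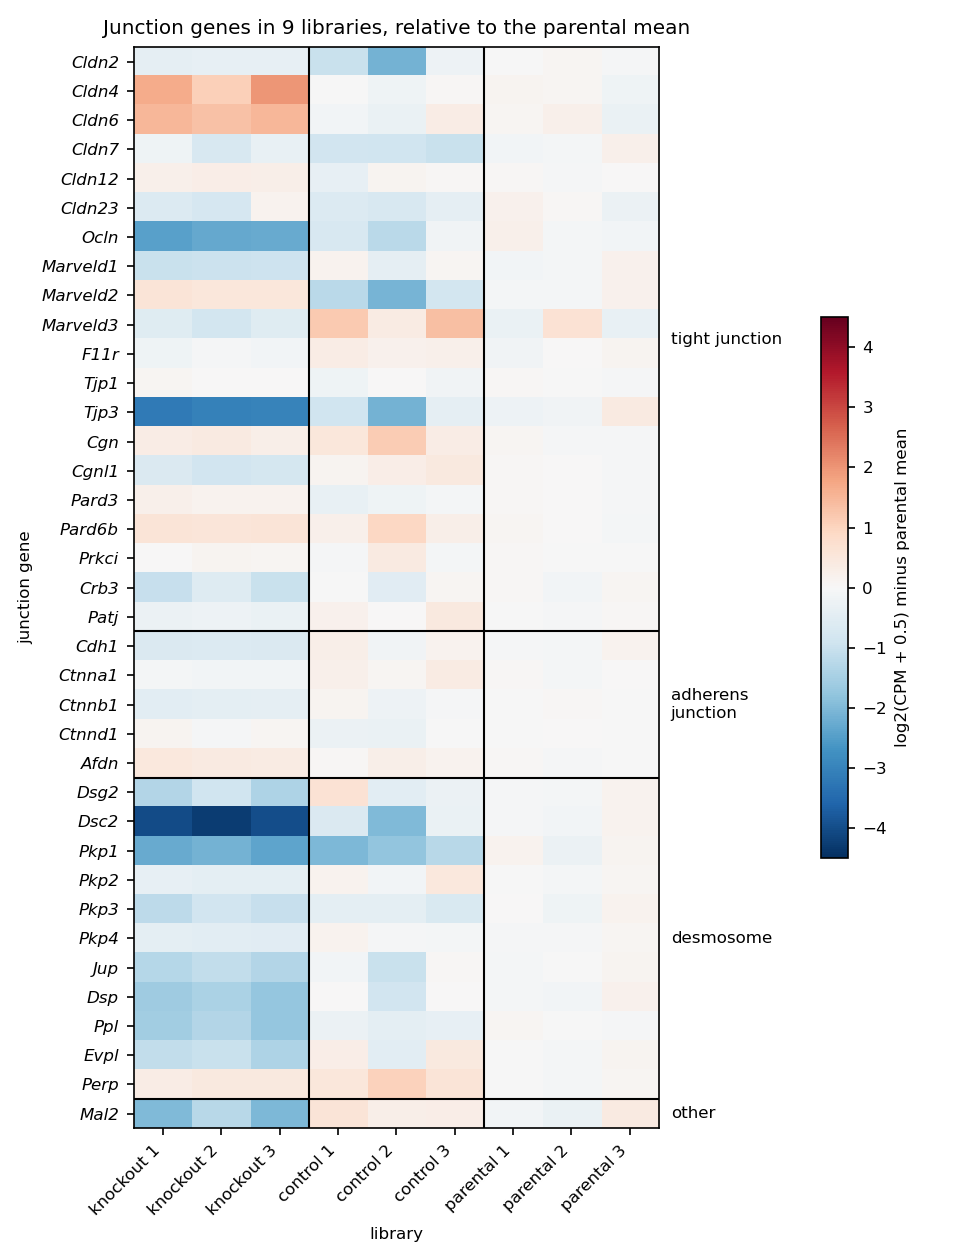
Log2(CPM + 0.5) of each of the 37 tested genes minus its mean over the parental libraries, by library and junction type; blue is lower and red higher than the parental mean. The knockout columns are blue for the desmosome genes except Perp, and the darkest cells are Dsc2 and Tjp3; in the control columns replicate 2 is the bluest for Cldn2, Tjp3, Marveld2 and Dsc2.

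Between the unedited clone C5 and the parental line 6 of the 37 tested junction genes were called, which is 16.2%, where 21.4% of all tested genes were. Marveld2 (-1.49, adjusted p 0.0113), Cldn7 (-1.09, adjusted p 0.00757), Pkp1 (-2.48, adjusted p 0.00381) and Pkp3 (-0.56, adjusted p 0.0312) were lower in clone C5, against a background of 11%, and 3 of these by at least 1 on the log2 scale, against 3.41%. Cgn (0.71, adjusted p 0.0233) and Perp (0.73, adjusted p 0.00406) were higher, against 10.4%, and 0 by at least 1, against 3.06%. The libraries lay apart for 12 genes below (19.2%) and 7 above (18.2%). Of the desmosome genes Pkp1 and Pkp3 were called lower, and no adherens junction gene was called in the edgeR test with all libraries. Other fits added calls for 15 junction genes that the main fit did not call. Of the tight junction genes, Cldn2, Ocln, Tjp3 and Pard3 were called lower in some fits, and Marveld3, F11r, Cgnl1, Pard6b and Patj higher. Pard6b was called in 5 of 17 alternatives and Cldn2 in 4. Ppl (-0.35, adjusted p 0.0512) was called lower in 6 of 17 alternatives, among them the exclusion of knockout replicate 2 (adjusted p 0.0287) or 3 (adjusted p 0.045). Dsc2 (-0.84, adjusted p 0.106) was called lower in 4, among them the exclusion of control replicate 2 (-0.48, adjusted p 0.0271) or 3 (-1.18, adjusted p 0.021). Pkp2 (0.33, adjusted p 0.0364) and Evpl (0.36, adjusted p 0.0466) were called higher without control replicate 2. Ctnna1 (0.25, adjusted p 0.0589) was called higher with DESeq2 (adjusted p 0.0299) and without control replicate 2 (adjusted p 0.00964), and Ctnnd1 (-0.19, adjusted p 0.157) lower without control replicate 3 (adjusted p 0.0178). The count of 6 called genes depended on the fit. With DESeq2 12 junction genes were called (3354 of all 13153). Without control replicate 2 the number called was 15 (3930 of 13460), and without control replicate 3 it was 13 (4102 of 13322). Cgn was at 0.42 without control replicate 2, and it was not called without any 1 parental library (adjusted p from 0.0593 to 0.082) or with only the groups compared (adjusted p 0.0687). Pkp3 was not called without control replicate 1 (adjusted p 0.0539), parental replicate 1 (adjusted p 0.0918) or 3 (adjusted p 0.104), or knockout replicate 3 (adjusted p 0.0501), nor with the replicate number as a block (adjusted p 0.0588), no filter (adjusted p 0.052) or only the groups compared (adjusted p 0.0678).

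Expressed per kilobase of annotated exon, so that genes can be set side by side, E-cadherin led the 39 genes in clone C5, at 280 CPM per kb, and in the parental line, at 263. In clone E4 Cldn6, at 171 CPM per kb, and Cdh1, at 168, were highest and close to each other. The catenin genes followed, with Ctnnb1 at 129, 170 and 176 CPM per kb and Ctnna1 at 121, 156 and 131 in clone E4, clone C5 and the parental line. Among desmosome genes Perp was highest in each group, at 86.4, 108 and 65.3 CPM per kb, and Dsp stood at 20.9, 53 and 62.7. In clone E4 Pkp4, at 36.1 CPM per kb, came between them. Among claudins the order was Cldn6, Cldn2 and Cldn12 in all 3 groups. Gene lengths are unions of exons and not of the transcripts used in these cells, so neighbours in this order are not separated firmly.

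Beyond the 39, 67 other junction genes of a hand-made list were in the table and 41 were tested. Against clone C5 13 were called lower and 8 higher, and against the parental line 10 lower and 10 higher, with medians of -0.18 and -0.08. The shares against clone C5, 31.7% lower and 19.5% higher, stood beside 24.2% and 18.7% of all tested genes, and those against the parental line, 24.4% in each direction, beside 18.3% and 13.1%. Nectin1, an adhesion receptor of adherens junctions, was at 0.0488, 0.223 and 0.0584 CPM across the knockout samples, 8.25, 7.2 and 7.87 CPM across the control samples and 18.7, 17.6 and 16.6 CPM across the parental samples. The log2 fold changes came to -6.08 (SE 0.30, adjusted p 1.72e-06) and -7.26 (SE 0.29, adjusted p 5.67e-07), the knockout libraries holding 6 counts, and Nectin1 lies on chromosome 9. Crb2 was at 0.181 ± 0.0384 CPM in clone E4, 1.29 ± 0.667 in clone C5 and 1.13 ± 0.569 in the parental line (SD, n = 3), at -2.78 (adjusted p 0.00564) and -2.61 (adjusted p 0.0117). Pard6g, the paralogue of Pard6b, rose to 2.53 ± 0.656 CPM from 0.389 ± 0.196 and 0.616 ± 0.401 CPM, at 2.64 (adjusted p 0.00328) and 2 (adjusted p 0.0146). Ildr2, an angulin of tricellular junctions, held 0 counts in clone E4 and 2 in clone C5 against 127 in the parental line. The knockout clone was thus at least 43-fold lower than the parental line, counting a floor of 3 over the group, and the parental to control ratio was 68.2 (95% counting interval 18.5 to 569, which covers counting error only). Of the other desmosome genes 4 were tested, and 1 of them was called, higher in each knockout comparison: Dst, dystonin, at 0.97 (adjusted p 0.00317) and 0.59 (adjusted p 0.042). Plec (0.08 and 0.20) and Eppk1 (-0.23 and -0.39) were not called, and the median of the 4 was 0.53 and 0.40.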

How the data were processed

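Counts came from 9 libraries, and the authors deposited them as estimated counts per gene from RSEM. The submitters' processing notes name RSEM 1.3.0, STAR 2.5.2, DESeq2 1.10.1 and build GRCm38, with no role or order; the annotation and strand setting are not given in the sources used here. The deposited counts are whole and needed no rounding. RSEM divides shared reads by an estimate, so overlapping genes are uncertain. Symbols, positions and exon lengths are from GENCODE M21 on GRCm38, which held 54809 of 54838 identifiers.

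Genes passing filterByExpr (minimum count 10, minimum total 15) were tested with edgeR 4.0.16 (glmQLFit, glmQLFTest, TMM) in R 4.3.3, with the group as the only term over all 9 libraries. Adjusted p-values are Benjamini-Hochberg over 13153 genes, and standard errors divide the unshrunken log2 fold change (absolute value) by the square root of F. No pair of libraries of a group matched within sampling noise (lowest chi-square per gene 5.01); the design text calls the samples biological replicates without saying how cultures were separated, so p-values measure the spread between these samples. The scripts were tested on simulated data. Alternatives were other size factors, filters, tests (DESeq2 1.42.0, limma voom 3.58.1), a replicate block, only the groups compared, single libraries left out and a fold threshold.

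The members and lists were chosen with earlier results of these data known. Values per library are given for members called past a log2 change of 1 either way in a knockout comparison and for Cdh1, Ctnnb1, Ctnna1, Tjp1, Ocln, Dsp and Jup. Other junction genes are named where called past a log2 change of 2 either way; Dst, and Cldn2 for its values per library, were chosen after their values were seen.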

Additional observations from a re-analysis of the deposited data

How the results depend on the processing

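No junction gene that was called changed direction under any alternative. Of the calls against clone C5 24 of 29 held in every alternative that gave a value other than the fold threshold, of those against the parental line 20 of 23, and of those between clone C5 and the parental line 4 of 6. A fold threshold (a log2 change of 1 or more either way) left 14 junction genes (1843 of all genes), 13 (1392) and 3 (851) in the 3 comparisons. Of the genes called lower it left 4 tight junction, 0 adherens junction and 6 desmosome genes against clone C5, and 2 tight junction, 0 adherens junction and 8 desmosome genes against the parental line. A mean of at least 5 CPM tested fewer genes and left 5 and 3 of 13 tight junction genes lower in the knockout comparisons (2464 and 1801 of all 10017). Between the other groups it left 3 junction genes (2222 of all 10017), where DESeq2 called 12 (3354 of all 13153). With only the groups compared, all-gene counts were 6840 for clone E4 against the parental line and 1525 for clone C5 against that line; the cause was not tested. Excluding 1 library gave 24 to 31, 20 to 26 and 4 to 15 junction genes and 4301 to 7204, 2515 to 5693 and 1472 to 4102 of all genes. The low all-gene counts came without knockout replicate 1 (4301 and 2626), parental replicate 3 (2515 and 1792), parental replicate 1 (1472) and parental replicate 2 (1537). Against clone C5, excluding any 1 library left 8 or 9 tight junction, 3 adherens junction and 8 to 10 desmosome genes called lower. Against the parental line it left 5 or 6, 2, and 9 or 10. All genes called lower in these exclusions ranged from 2440 to 3813 and from 1640 to 3093. With the replicate block 28, 23 and 7 junction genes were called (5528, 3941 and 2492 of all genes). Correlations of same-numbered deviations between groups ran from -0.183 to 0.275. Differently numbered libraries were not set beside them, so pairing by replicate number was not tested. With total counts for scaling, the share of lower calls between clone C5 and the parental line went from 51.3% to 61.2% over all genes, and the median of all genes moved by at most 0.05. Depth limits Ocln, Pkp1, Cldn4, Tjp3 and Marveld3, which rest on 6 to 17 counts in the low group.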

Other observations

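Several junction genes lie beside a relative on the same chromosome. Ocln and Marveld2, and Cdh1 and Cdh3, changed in opposite directions in clone E4, the knockout. Ocln and Marveld2, 43.2 kb apart on chromosome 13, differed from clone C5 by -3.41 and 2.05 on the log2 scale, and from the parental line by -4.21 and 0.56. Cdh1 lies 46.1 kb from Cdh3, the gene of P-cadherin, on chromosome 8. Cdh3 was at 26.4, 29.4 and 25.1 CPM across the knockout samples, 9.43, 10.5 and 6.4 CPM across the control samples and 20.3, 19.1 and 15.2 CPM across the parental samples, highest in the knockout samples. For Cdh3 the log2 fold changes were 1.62 (adjusted p 0.000157) and 0.57 (adjusted p 0.0359) in the edgeR test, while those of Cdh1 were -0.74 and -0.65. Cldn6 and Cldn9 lie 0.137 kb apart on chromosome 17, and Cldn9 held 3 counts in clone E4, 3 in clone C5 and 0 in the parental line, where Cldn6 held 16422, 6338 and 6013. Cldn4, which rose, lies 39.3 kb from Cldn3, which held 0 counts in both clones. Cldn9 and Cldn3 had too few counts to be tested. These pairs were picked after their values were seen, and the difference within a pair was not tested.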
